A study of Mus musculus with 9 samples.

Results

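Chemokines are small secreted proteins that direct the migration of leukocytes and other cells through G protein-coupled receptors, and fibroblasts are one of their sources in connective tissue. The 9 genes described here (Ccl2, Ccl7, Cxcl1, Cxcl5, Cxcl10, Cxcl12, Cxcl14, Cxcl15 and Cxcl16) are named chemokine ligands, taken from 19937 genes that the arrays measured with a probe set of a single gene symbol. Probe sets were chosen by their mean log2 value over all 9 arrays, the brightest standing for its gene, with no filter on dim genes. Each of the 9 had 1 such probe set and none had another that names several genes, so brightness decided nothing among them. The list itself was drawn up with earlier results of these data known.

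RNA came from embryonic fibroblasts of mice (MEFs, primary connective tissue cells) that differ at Cdkn1b, which encodes p27, an inhibitor of the cell cycle. The genotypes were p27CK (CK), p27KO (KO) and wild type (WT), with 3 arrays each. All had been grown with 10% fetal bovine serum and were then starved of serum for 72 h, which brings fibroblasts to quiescence, and no cycling or stimulated cells are part of the set. In published work p27CK denotes a p27 protein that no longer binds cyclins and their kinases, but the labels give only the name. The extraction protocol names wild-type and delta51 mice without saying which cells delta51 stands for, and no embryo number, sex, age or strain is given. Nothing says that the 3 arrays of a genotype come from separate cultures or embryos, so p-values measure the spread between arrays, which may be technical, and genotype and culture cannot be told apart. The comparisons ask how the ligands differ in each mutant from WT and between the mutants.

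The KO label was checked on Cdkn1b, whose brighter probe set averaged 11.10 in CK, 7.38 in KO and 11.46 in WT on the log2 scale. CK and WT both read high, so this does not check which of them is which. The other Cdkn1b probe set was highest in KO, at 7.08 in CK, 7.60 in KO and 7.43 in WT, and where either lies relative to the altered part of the gene is not known here. Array medians over all 34760 probe sets lay between 7.29 and 7.40. Fibroblast markers were high, and 11 of 12 were above 7.24 on at least 1 array, where 7.24 is the 40th percentile of gene means and serves below as a mark for dim values, since the table holds no detection calls. Fap, a fibroblast activation marker, stayed below it on all arrays. Thy1, a surface glycoprotein of many fibroblasts, averaged 11.69 ± 0.06 in CK, 7.14 ± 0.25 in KO and 11.73 ± 0.19 in WT (SD, n = 3 each). Of 14 macrophage and leukocyte markers, 10 were below 7.24 on all 9 arrays, among them Ptprc, Csf1r, Adgre1 and Itgam. Fibroblast markers themselves differed. In KO 1 was higher and 7 lower than in WT, where limma called 33.7% of all genes. In CK 3 were higher and 4 lower than in WT, against 42.3% of all genes called. The median level of the fibroblast markers lay between 12.60 and 12.64 in CK, between 11.99 and 12.17 in KO and between 12.88 and 13.03 in WT. The median level of the 14 leukocyte markers lay between 6.28 and 6.32 in CK, between 6.15 and 6.23 in KO and between 6.14 and 6.18 in WT. Limma called 1 of the 14 higher and 2 lower in KO than in WT, or 8 and 2 with arrays centred on their median. Here and below, centring used the median of an array's 19937 gene values. The 4 that were not dim on all arrays, Cd68, Cd14, Lyz2 and Cd53, did not go one way. Cd68 was lower than WT in CK and KO (log2 differences -2.05 and -2.66), while Lyz2 was higher in both (0.70 and 1.93). Cd14 was lower in both (-1.18 and -1.21), and Cd53 was higher in CK (2.12). The part of these markers in the chemokine values was not tested.

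Promoter sequence from RefSeq (build GRCm38.p6) was at hand for 5 of the 9 genes, as the 250 bases before the annotated start. The sequences below are of 3 genes on chromosome 5, Cxcl1 and Cxcl15, which were lower in CK than in WT, and Cxcl10, which was higher there, and of Cxcl12, which was higher in both mutants. Cxcl1 is at chr5:90890995-90891244 on the plus strand and Cxcl10 at chr5:92348890-92349139 on the minus strand. Cxcl15 is at chr5:90794284-90794533 and Cxcl12 at chr6:117168285-117168534, both on the plus strand. Each is written 5′ to 3′ along the gene. Capitals mark matches, on either strand, to the NF-kB consensus, to GAAA followed after any 2 bases by GAAA (the interferon-stimulated response element), to TATAAA (the TATA box) or to GGGCGG (the GC box).
Cxcl1: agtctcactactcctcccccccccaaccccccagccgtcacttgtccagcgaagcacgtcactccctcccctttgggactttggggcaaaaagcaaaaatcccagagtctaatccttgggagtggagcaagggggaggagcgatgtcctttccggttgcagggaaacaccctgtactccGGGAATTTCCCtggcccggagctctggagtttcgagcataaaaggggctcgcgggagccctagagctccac
Cxcl10: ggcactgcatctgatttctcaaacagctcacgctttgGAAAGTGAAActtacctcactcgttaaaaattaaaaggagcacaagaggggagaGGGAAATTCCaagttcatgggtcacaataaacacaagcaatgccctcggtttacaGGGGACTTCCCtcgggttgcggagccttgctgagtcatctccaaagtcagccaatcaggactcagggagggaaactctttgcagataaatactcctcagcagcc
Cxcl15: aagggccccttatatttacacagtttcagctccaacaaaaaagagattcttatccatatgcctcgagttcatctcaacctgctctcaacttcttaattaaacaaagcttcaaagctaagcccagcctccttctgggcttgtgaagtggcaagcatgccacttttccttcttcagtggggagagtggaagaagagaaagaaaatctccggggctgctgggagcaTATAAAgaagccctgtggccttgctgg
Cxcl12: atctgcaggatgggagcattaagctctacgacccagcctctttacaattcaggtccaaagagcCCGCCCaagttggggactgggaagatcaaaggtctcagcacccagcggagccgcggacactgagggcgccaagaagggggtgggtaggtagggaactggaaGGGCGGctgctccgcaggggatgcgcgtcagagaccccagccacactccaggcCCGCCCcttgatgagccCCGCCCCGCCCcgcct

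NF-kB is the transcription factor through which cytokines and microbial products switch on many chemokine genes. Cxcl1 matched its consensus at GGGAATTTCC, 71 to 62 bases before the start, and again in the overlapping run shifted by a single base. Cxcl10 matched it at GGGAAATTCC (159 to 150) and GGGGACTTCC (104 to 95, with an overlapping match), and held GAAAGTGAAA further up, at 213 to 204. Cxcl15 matched TATAAA at 27 to 22 and none of the other motifs. Cxcl12 held 5 matches to the GC box, the last pair of which share a base, and no other match. In Cxcl14 the only match was to the interferon element, GAAACAGAAA, at 172 to 163. Of 32851 promoter windows of that length, 7.25% held the NF-kB consensus, 2.98% the interferon element, 12.4% the TATA box and 32.7% the GC box. Such matches describe letters and not binding.

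**Figure D1:**
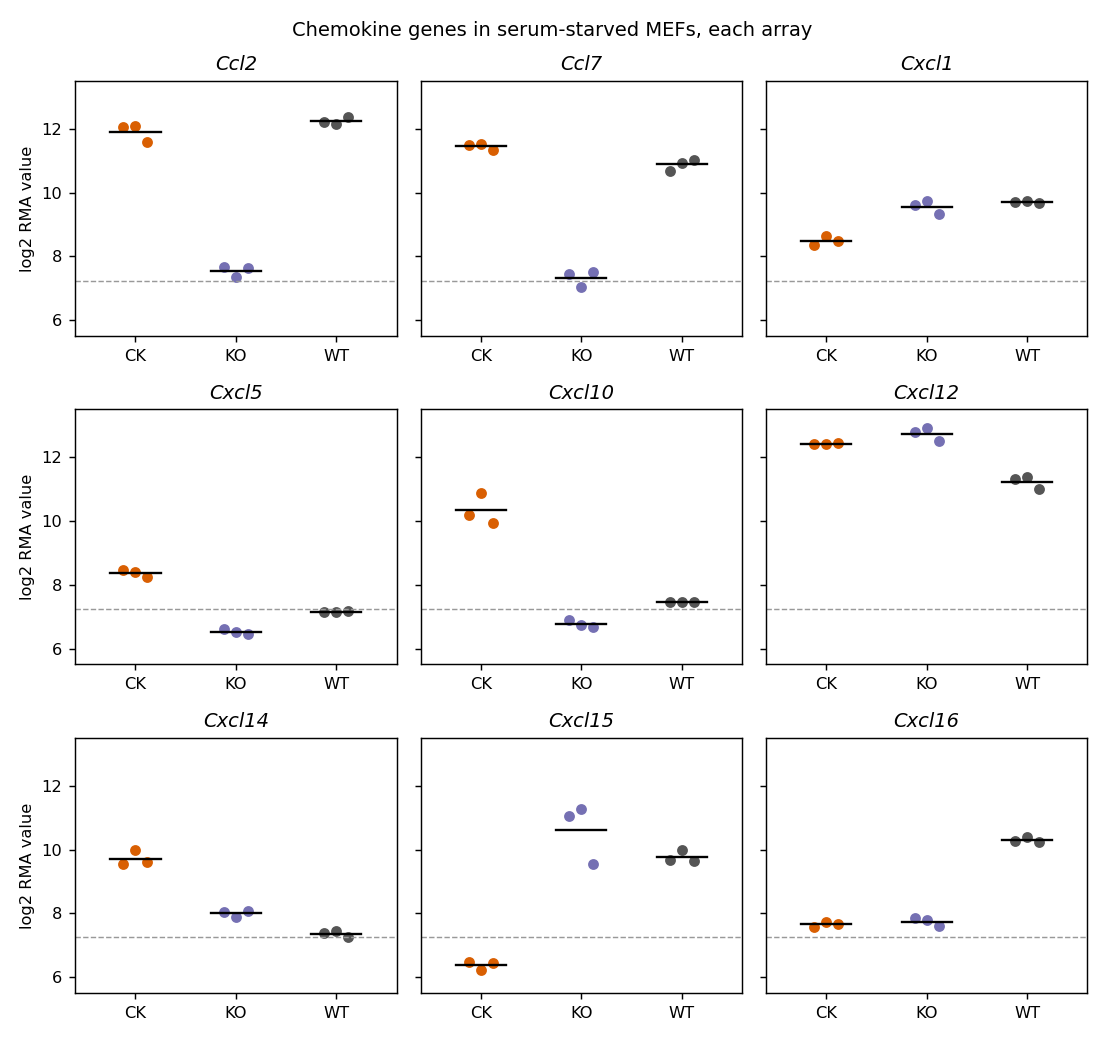
Log2 RMA value (vertical axis) of the 9 chemokine genes on each of the 9 arrays, by genotype (horizontal axis). Points are arrays, black bars are means of 3 arrays and the dashed line is the 40th percentile of gene means, 7.24; Ccl2 and Ccl7 sit near that line in KO alone, and Cxcl16 lies at 7.57 to 7.84 in CK and KO, against 10.24 to 10.39 in WT.

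The CC chemokines Ccl2 and Ccl7, which draw monocytes through the receptor Ccr2, were low in KO cells and high in the other cells. Ccl2 read 12.04, 12.09 and 11.58 in CK, 7.65, 7.34 and 7.64 in KO, and 12.22, 12.14 and 12.36 in WT (log2). The KO arrays lie far below all others, and the CK arrays lie just below those of WT. In KO the signal was 26-fold lower than in WT (-4.70 on the log2 scale, SE 0.14, limma adjusted p = 1.58e-08), and CK was 20.6-fold above KO (4.36, SE 0.14, adjusted p = 1.84e-08). The small CK deficit was not called (-0.34, SE 0.14, adjusted p = 0.0858), but it was when genes with means under the 40th percentile were left out of the fit (adjusted p = 0.0490). Without CK replicate 3 the difference was -0.18 (adjusted p = 0.242), and leaving out any single array made no call.

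Ccl7 read 11.51, 11.52 and 11.35 in CK, 7.45, 7.02 and 7.50 in KO, and 10.69, 10.94 and 11.02 in WT. Here the CK arrays were the highest, and no arrays of different genotypes overlapped. KO was 11.8-fold lower than WT (-3.56 on the log2 scale, SE 0.13, limma adjusted p = 6.56e-08), while CK was higher than WT by 0.58 (SE 0.13, adjusted p = 0.00571). CK exceeded KO 17.6-fold (4.14, adjusted p = 1.73e-08). The KO values of both genes are close to 7.24, and no detection call tells whether they exceed background, so the folds compare signals and may be smaller than those of the RNA. In bulk RNA, fewer cells that make a transcript and less transcript per cell cannot be told apart.

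Cxcl1, Cxcl5 and Cxcl15 belong to the CXC chemokines with a Glu-Leu-Arg motif, which attract neutrophils; the mouse receptor of Cxcl1 and Cxcl5 is Cxcr2. Cxcl1 (also KC) was lower in CK than in KO and WT. It read 8.34, 8.65 and 8.47 in CK, 9.60, 9.74 and 9.32 in KO, and 9.70, 9.74 and 9.66 in WT. The CK arrays were all below the others, and KO arrays overlapped those of WT. CK was 2.32-fold lower than WT (-1.21 on the log2 scale, SE 0.11, limma adjusted p = 1.52e-05) and lay 2.10-fold below KO (-1.07, adjusted p = 3.53e-05), whereas KO minus WT was -0.15 (SE 0.11, adjusted p = 0.379).

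Cxcl15, or lungkine, is best known from the epithelium of the mouse lung. Its probe set read 6.46, 6.23 and 6.43 in CK, 11.06, 11.27 and 9.55 in KO, and 9.68, 10.00 and 9.64 in WT. All CK arrays were dim, 1 KO array fell below the WT arrays and the other KO arrays lay above them. CK was 10.5-fold lower than WT (-3.40 on the log2 scale, SE 0.38, limma adjusted p = 6.54e-05) and 19.1-fold below KO (-4.25, SE 0.38, adjusted p = 1.44e-05). KO minus WT was not called (0.86, SE 0.38, adjusted p = 0.123). Without KO replicate 3 it was 1.39 with an adjusted p of 5.19e-05, and with array weights it was 1.11 (adjusted p = 0.0159), so that array decides the call. Without KO replicate 2 it was 0.53 (adjusted p = 0.372). Of 10 epithelial markers, 1 was higher and 1 lower in KO than in WT (3 and none with arrays centred on their median), and 1 was higher and none lower in CK. Limma called 33.7% and 42.3% of all genes in these comparisons. The median level of the epithelial markers lay between 6.72 and 6.76 in CK, between 6.86 and 6.98 in KO and between 6.71 and 6.81 in WT. Cdh1, the epithelial cadherin, was highest in KO, with means of 6.68 in CK, 7.51 in KO and 6.77 in WT (KO minus WT 0.74, adjusted p = 1.07e-06). The keratin genes Krt8 and Krt19 were above 7.24 on all arrays, and Krt19 was highest in CK, at 8.82 against 7.30 in KO and 7.52 in WT. The lung markers Sftpc and Scgb1a1 were dim on all arrays, at 5.98 to 6.16 and 5.02 to 5.13. The part of these markers in the Cxcl15 values was not tested.

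Cxcl5 (also LIX) ran the other way from Cxcl1 and Cxcl15 in CK. It read 8.45, 8.39 and 8.24 in CK, 6.60, 6.52 and 6.46 in KO, and 7.13, 7.15 and 7.16 in WT. The genotypes did not overlap, and only the CK arrays rose above 7.24. CK was 2.32-fold above WT (1.21 on the log2 scale, SE 0.06, limma adjusted p = 2.80e-07) and 3.56-fold above KO (1.83, adjusted p = 1.71e-08). KO read lower than WT by a called difference (-0.62, SE 0.06, adjusted p = 2.89e-05), although both were dim.

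Cxcl10, an interferon-induced ligand of Cxcr3 that attracts T cells and natural killer cells, was raised in CK. It read 10.20, 10.89 and 9.94 in CK, 6.89, 6.73 and 6.66 in KO, and 7.46 on each of the 3 WT arrays, which held the identical value, so that no SD is given for WT. Each CK array was more than 2 units above every other array, and KO arrays lay below those of WT. CK was 7.37-fold above WT (2.88 on the log2 scale, SE 0.20, limma adjusted p = 2.92e-06) and 12-fold above KO (3.58, adjusted p = 6.36e-07). The lower reading in KO than in WT was smaller (-0.70, SE 0.20, adjusted p = 0.0232) and lay at dim values. That call was lost when WT replicate 1, 2 or 3 or KO replicate 2 or 3 was left out (adjusted p = 0.0670, 0.0639, 0.0600, 0.0696 and 0.0686).

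Cxcl12 and Cxcl14, which many tissues make without an inflammatory stimulus, were higher in both mutants. Cxcl12, the stromal ligand of Cxcr4 and of the scavenging receptor Ackr3, read 12.40, 12.40 and 12.45 in CK, 12.78, 12.91 and 12.53 in KO, and 11.31, 11.37 and 11.02 in WT. All mutant arrays exceeded all WT arrays by over 1 unit. The rise over WT was 1.19 in CK (SE 0.11, limma adjusted p = 2.06e-05) and 1.50 in KO (SE 0.11, adjusted p = 6.01e-06), or 2.28-fold and 2.84-fold. CK was slightly lower than KO (-0.32, SE 0.11, adjusted p = 0.0449), a call that was lost when any CK replicate (adjusted p = 0.106, 0.105 and 0.0797 without replicates 1, 2 and 3), KO replicate 1 (0.122), KO replicate 2 (0.159) or WT replicate 1 (0.0630) was left out. Cxcl12 lies on chromosome 6, as does Cdkn1b.

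Cxcl14, also BRAK, read 9.53, 9.98 and 9.62 in CK, 8.04, 7.89 and 8.07 in KO, and 7.37, 7.44 and 7.26 in WT. The genotypes followed each other with no overlap, with WT near the dim mark. CK was 5.09-fold above WT (2.35 on the log2 scale, SE 0.11, limma adjusted p = 2.38e-07), KO was 1.56-fold above WT (0.64, SE 0.11, adjusted p = 0.00147), and CK stood 3.27-fold above KO (1.71, adjusted p = 1.58e-06).

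Cxcl16 is made as a transmembrane protein that holds cells bearing Cxcr6 and is shed by the proteases Adam10 and Adam17. It was lower in both mutants. It read 7.57, 7.71 and 7.66 in CK, 7.84, 7.79 and 7.59 in KO, and 10.28, 10.39 and 10.24 in WT. WT arrays lay over 2 units above the mutants, whose arrays overlapped. CK was 6.29-fold lower than WT (-2.65 on the log2 scale, SE 0.07, limma adjusted p = 9.74e-09) and KO 5.91-fold lower (-2.56, SE 0.07, adjusted p = 1.29e-08). CK minus KO was -0.09 (SE 0.07, adjusted p = 0.393). The median level of 8 endothelial markers lay between 6.53 and 6.73 in CK, between 6.71 and 6.76 in KO and between 7.10 and 7.18 in WT. Taken gene by gene, however, their median difference from WT was only -0.04 in CK and -0.08 in KO. Of the 8, 4 were below 7.24 on all arrays. Of these 8, 1 was higher and 2 lower in CK than in WT, and none was higher and 2 were lower in KO (with arrays centred on their median, 2 higher and 2 lower in each). Limma called 42.3% and 33.7% of all genes in these comparisons. Tek, the angiopoietin receptor, was lower in both mutants, with means of 6.51 in CK, 6.80 in KO and 8.77 in WT (-2.26 and -1.97 for CK and KO minus WT). So was Cdh5, at 6.59 in CK, 6.64 in KO and 7.18 in WT. Kdr, dim on all arrays, was higher in CK than in WT (means of 6.34 and 6.14). The part of these markers in the Cxcl16 values was not tested.

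**Figure D2:**
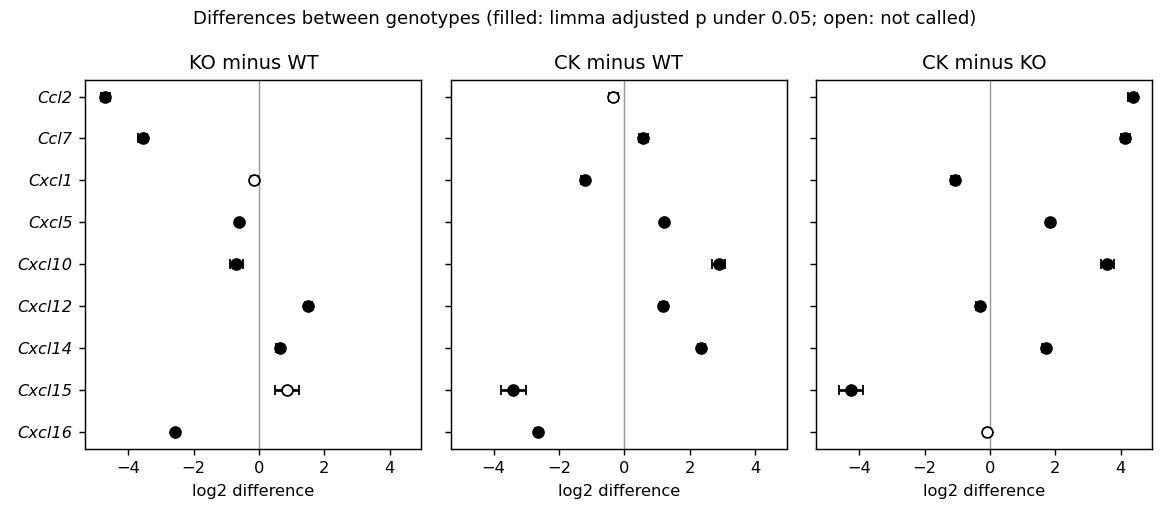
Log2 differences (horizontal axes) of the 9 chemokine genes (vertical axis) for KO minus WT, CK minus WT and CK minus KO, with bars of 1 limma SE that are often shorter than the points. Filled points are called at an adjusted p under 0.05; Ccl2 runs from -4.70 in KO minus WT to 4.36 in CK minus KO, and Cxcl16 is near 0 only between the mutants.

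Counted over the list, limma made 7 calls among the 9 in KO against WT, with 2 higher and 5 lower, where it called 33.7% of all genes (17.2% higher and 16.4% lower). Between CK and WT it called 8, 5 higher and 3 lower, against 42.3% of all genes (20.7% higher, 21.6% lower). Between CK and KO it called 8, 5 higher and 3 lower, against 41.5% of all genes (19.9% higher, 21.6% lower). Arrays did not overlap for 7, 9 and 8 of the 9 in these comparisons, against 43.5%, 48.5% and 48.8% of all genes. Called differences of at least 1 unit, a 2-fold change, numbered 4, 7 and 7 of the 9, against 5.8%, 7.28% and 8.23% of all genes. The median absolute difference of the 9 was 0.86, 1.21 and 1.83, and that of all genes 0.10, 0.13 and 0.12. KO versus WT and CK versus WT share the WT arrays, and the genes were listed with such results known, so these counts describe the list and support nothing further. With 3 arrays against 3, the exact two-sided permutation test cannot give less than 0.1, which it gave for each gene and comparison without overlap. With every array centred on the median of its gene values, all genes moved up by a median of 0.12 in KO versus WT. There 11925 genes were called (9500 higher and 2425 lower, against 3439 and 3279 without centring). The share of calls that were higher fell to 35.1% in CK versus KO, against 48.0% without centring. The counts of the 9 genes, higher and lower, stayed the same.

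**Figure D3:**
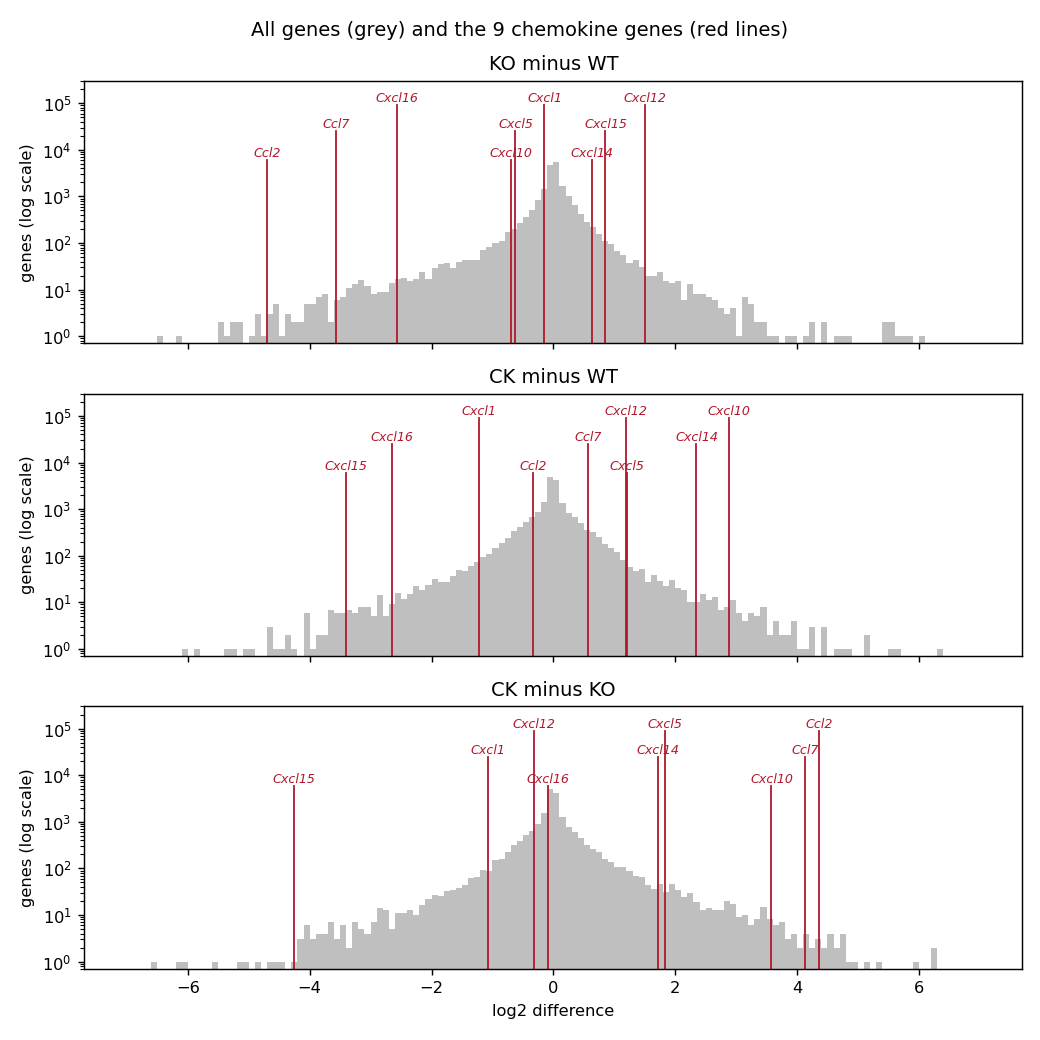
Number of genes (vertical axes, log scale) by log2 difference (horizontal axis, bins of 0.1) for all 19937 genes in grey, with the 9 chemokine genes as red lines whose heights carry no value. In KO minus WT, Ccl2, Ccl7 and Cxcl16 lie in the left tail at -4.70, -3.56 and -2.56; in CK minus KO, Cxcl15 lies in the left tail at -4.25 and Ccl2, Ccl7 and Cxcl10 in the right one at 4.36, 4.14 and 3.58.

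The 9 genes lie on 4 chromosomes, and neighbours in a cluster did not share a pattern throughout. On chromosome 11, Ccl2 and Ccl7 are next to each other, and both were low in KO. The chemokine genes that follow them, Ccl11, Ccl12, Ccl8 and Ccl1, had genotype means of at most 7.24. At these levels Ccl11 was called lower in KO than in WT (-0.17, limma adjusted p = 0.0491), with overlapping arrays. Ccl8 averaged 5.97 in CK, 5.70 in KO and 5.68 in WT, and its CK arrays lay above all others. On chromosome 5 the order is Cxcl5, Ppbp, Pf4, Cxcl3, Cxcl15, Cxcl1 and Cxcl2, with Cxcl9, Cxcl10 and Cxcl11 farther along. Of these, Cxcl15 and Cxcl1 are adjacent and were both lower in CK than in WT and KO, whereas Cxcl5 was higher there. Pf4, Cxcl3 and Cxcl2 between and beside them stayed below 7.24 on all arrays, as did Cxcl9 and Cxcl11 around Cxcl10. At dim levels Cxcl2, Cxcl9 and Cxcl11 nonetheless read higher in CK than in WT. For Cxcl11, an interferon-induced ligand like Cxcl10, the log2 difference was 0.37 against WT (limma adjusted p = 0.000729) and 0.45 against KO (adjusted p = 0.000195). For Cxcl2, which also attracts neutrophils, it was 0.31 against either, and for Cxcl9 it was 0.17 and 0.19.

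**Figure D4:**
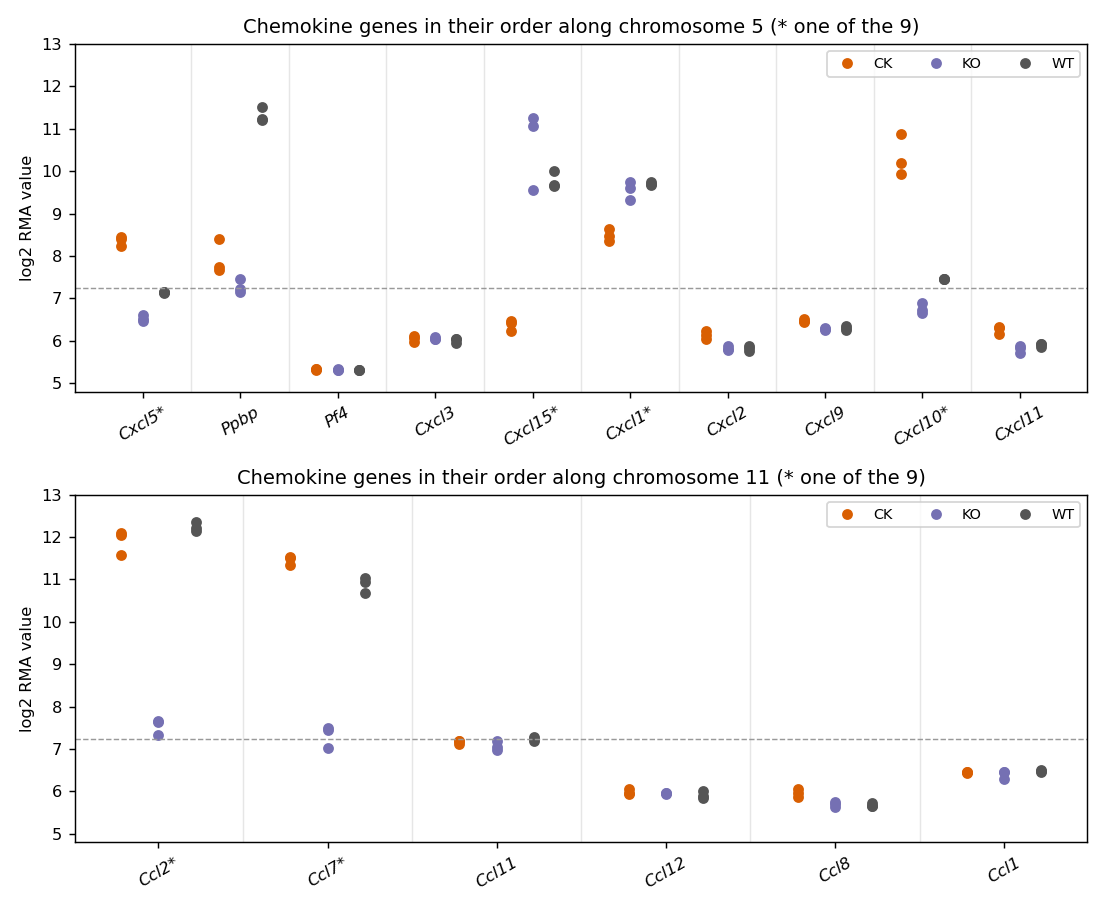
Log2 RMA value (vertical axes) on each array for chemokine genes in their order along chromosomes 5 and 11 (horizontal axes, not to distance), CK left, KO middle and WT right for each gene, with a dashed line at 7.24. Ppbp is at 11.21 to 11.52 in WT and at 7.16 to 8.40 in the mutants, next to Cxcl5, which is highest in CK.

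Among the 27 other chemokine ligands with a probe set, 19 were below 7.24 on all arrays. Limma called 1 higher and 6 lower in KO than in WT, 7 higher and 3 lower in CK than in WT, and 9 higher and 2 lower in CK than in KO, with median differences of 0.01, 0.02 and 0.05 (0.01, -0.01 and -0.01 over all genes). These are 7, 10 and 11 of the 27, where limma called 33.7%, 42.3% and 41.5% of all genes. With arrays centred on their median the KO split turned round, to 12 higher and 5 lower. Ppbp, the platelet basic protein and a neighbour of Cxcl5, read 7.74, 8.40 and 7.67 in CK, 7.23, 7.16 and 7.46 in KO, and 11.21, 11.23 and 11.52 in WT. Like Cxcl16 and Tek it was high in WT, with CK 10.4-fold and KO 16.4-fold lower (log2 differences -3.38 and -4.04 for CK and KO minus WT, SE 0.18, adjusted p = 6.23e-07 and 2.48e-07). Cx3cl1, which like Cxcl16 is made as a membrane-bound chemokine, was also lower in both, with differences of -1.26 in CK and -1.49 in KO (adjusted p = 3.43e-07 and 1.44e-07). Ccl5, another ligand that NF-kB and interferons induce, went with Cxcl10. It averaged 10.04 ± 0.19 in CK, 8.0 ± 0.16 in KO and 8.61 ± 0.02 in WT (SD, n = 3 each). Its CK minus WT difference was 1.43 (adjusted p = 3.93e-06) and its KO minus WT difference -0.62 (adjusted p = 0.00127). Ccl25 averaged 9.69 in CK, 7.37 in KO and 7.19 in WT on its brighter probe set, and 8.40, 7.80 and 7.70 on its other. Ccl28, dim throughout, was lower than WT in CK (-0.26) and KO (-0.31).

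The signalling receptors of these ligands were at the low end of the scale in all genotypes. Of 17 chemokine receptors, 16 were below 7.24 on all arrays, the highest genotype mean was 7.15, and the 1 limma call in any comparison was Ccr7, lower in CK than in WT (-0.14, adjusted p = 0.0430). Without adjustment, p was under 0.05 for 1 receptor in KO versus WT, 2 in CK versus WT and 0 in CK versus KO. With arrays centred on their median, limma called 4 receptors higher in KO than in WT, 0 in CK versus WT and 2 lower in CK than in KO. Ccr2 averaged 5.23 in each genotype, Cxcr2 5.71 in CK, 5.75 in KO and 5.72 in WT, Cxcr3 6.62, 6.57 and 6.65, Cxcr4 6.47, 6.49 and 6.59, and Cxcr6 6.01, 6.0 and 6.03. Low readings do not show that a transcript is absent. Atypical receptors such as Ackr3 and Ackr4 take up chemokines without G protein signalling. Of 5 genes listed as atypical receptors, 2 were above the dim mark on all arrays. Ackr3, which binds Cxcl12, read 7.41, 7.49 and 7.44 in CK, 9.31, 9.33 and 9.28 in KO, and 8.11, 8.11 and 8.12 in WT. The genotypes did not overlap: KO was 2.29-fold above WT (log2 difference 1.19, SE 0.03, adjusted p = 1.46e-08) and CK 1.58-fold below it (-0.66, adjusted p = 5.09e-07). Ackr4, a scavenger of CC chemokines such as Ccl19, was lower than WT in CK (-1.17, adjusted p = 7.11e-07) and in KO (-0.61, adjusted p = 6.88e-05). Ccrl2, dim in all, differed between CK and KO (0.32, adjusted p = 0.00635).

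Of 7 genes for enzymes that cut or shed chemokines, 4 were lower and none higher in KO than in WT, and 3 were lower and 2 higher in CK. With arrays centred on their median, 2 were higher and 4 lower in KO, and 3 higher and 3 lower in CK. Over all genes limma called 33.7% and 42.3% in these comparisons. Adam17 was lower in CK (log2 difference -0.34, limma adjusted p = 0.00121) and KO (-0.50, adjusted p = 0.000159). Adam10 was higher in CK (0.30, adjusted p = 0.00257), and its KO minus WT difference of 0.13 was not called (adjusted p = 0.151). The matrix proteases Mmp9 and Mmp14 were lower in KO than in WT (-3.36 and -1.35) and higher in CK than in KO (1.91 and 1.78). Against WT they went opposite ways in CK, Mmp9 lower (-1.46, adjusted p = 5.26e-07) and Mmp14 higher (0.44, adjusted p = 0.000954), while Mmp2 was lower than WT in CK and KO (-0.17 and -0.38). Dpp4, which trims Cxcl12 and Cxcl10 at the amino end, stayed below 7.24 on all arrays.

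Of 16 genes of the NF-kB pathway, 9 were lower in KO than in WT, 3 were higher and 4 were not called (median log2 difference -0.30, against 0.01 for all genes). Limma called 33.7% of all genes there (17.2% higher and 16.4% lower). With arrays centred on their median, 5 of the 16 were higher and 8 lower. Without centring, the 3 higher in KO were the NF-kB subunits Rel and Rela (log2 differences 0.40 and 0.21) and the kinase Ikbkb (0.39). Their limma adjusted p-values were 0.00419, 0.00761 and 0.00171. Nfkbiz, a nuclear IkB protein that aids transcription of inflammatory genes, averaged 8.95 ± 0.02 in CK, 8.26 ± 0.08 in KO and 9.90 ± 0.15 in WT (SD, n = 3 each). It was lower than WT in CK (-0.95, limma adjusted p = 6.19e-06) and in KO (-1.65, adjusted p = 2.23e-07). Nfkbie and Nfkbia, inhibitors that NF-kB itself induces, were lower in KO than in WT (-1.06 and -0.76, adjusted p = 1.74e-05 and 0.003). In CK, Nfkbie was lower than WT (-0.38), and the Nfkbia difference of 0.16 was not called (adjusted p = 0.448). The feedback enzyme Tnfaip3 (A20) was lower in CK and KO (-0.78 and -0.64). In CK versus WT 6 of the 16 genes were higher and 6 lower (median 0.07, against -0.01 for all genes), and in CK versus KO 9 were higher and 2 lower (median 0.25). Over all genes limma called 42.3% and 41.5% in these comparisons. Centring left 6 higher and 6 lower in CK versus WT, and 8 and 3 in CK versus KO. Bcl3, a nuclear partner of NF-kB subunits, was 2.42-fold higher in CK than in KO (1.28, adjusted p = 7.11e-06), and the adaptor Traf2 was higher in CK than in WT by 0.52 and than in KO by 0.65.

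Of 17 genes of interferon signalling, 2 were higher and 8 lower in CK than in WT. In KO 4 were higher and 7 lower than in WT, and in CK 8 were higher and 4 lower than in KO. With arrays centred on their median these splits became 4 and 7, 6 and 7, and 7 and 6. Without centring, limma called 42.3%, 33.7% and 41.5% of all genes in these comparisons. The interferon gamma receptor genes Ifngr1 and Ifngr2 were lower than WT in CK (log2 differences -0.54 and -0.46) and in KO (-1.06 and -0.71). Stat2, a transducer of interferon signals, was lower in CK (-0.42, limma adjusted p = 0.0167) and in KO (-0.92, adjusted p = 0.000233). Jak1, a kinase of interferon receptors, was lower in CK (-0.86) and not called in KO (0.03, adjusted p = 0.677). Those that rose in CK were Ifih1, a sensor of viral RNA, by 1.43 (adjusted p = 2.33e-06) and Ifit3 by 1.29 (adjusted p = 0.000234). Both were also higher in KO, by 0.70 and 0.57 (adjusted p = 0.000369 and 0.0307), where Cxcl10 read lower than WT. Ifit1 went with Cxcl10 in KO, lower than WT (-1.19, adjusted p = 0.0394), and was not called in CK (0.10, adjusted p = 0.885). Ddx58, another RNA sensor, was lower in CK than in KO (-0.72).

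**Figure D5:**
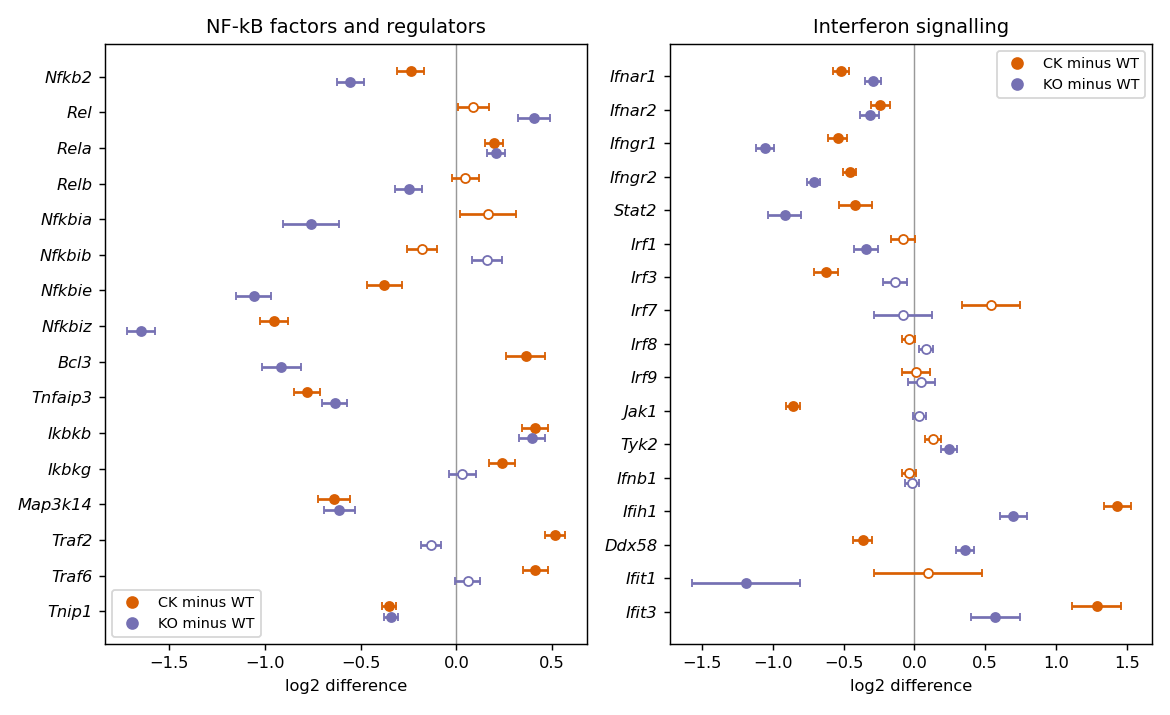
Log2 differences (horizontal axes) from WT of NF-kB and interferon signalling genes (vertical axes) in CK (orange) and KO (violet), with bars of 1 limma SE. Filled points are called at an adjusted p under 0.05; Nfkbiz is lower in both mutants (-0.95 and -1.65), Bcl3 is higher in CK and lower in KO (0.36 and -0.92), and Ifih1 is higher in both (1.43 and 0.70).

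Most of the cytokines listed as inducers of chemokines were themselves dim: Tnf, Il1a, Il1b, Il6, Il17a and Csf2 were below 7.24 on all arrays. Il33 was above 7.24 on the CK arrays alone (7.84, 8.02 and 8.17). Csf1 was not dim, with means of 11.76 in CK, 10.46 in KO and 11.98 in WT. Of the 22 genes for inducing cytokines, their receptors and adaptors, 5 were higher and 6 lower in KO than in WT, 5 higher and 7 lower in CK than in WT, and 7 higher and 7 lower in CK than in KO. With arrays centred on their median these splits became 12 and 4, 6 and 4, and 5 and 10. Without centring, limma called 33.7%, 42.3% and 41.5% of all genes in these comparisons. Il1rn, which encodes the antagonist of the interleukin-1 receptor, read 8.16, 8.28 and 8.36 in CK, 12.10, 12.25 and 11.56 in KO, and 7.82, 7.65 and 7.69 in WT. The KO arrays were far above the others, 19-fold over WT (4.25 on the log2 scale, SE 0.15, limma adjusted p = 6.06e-08), and high where Ccl2 and Ccl7 were low. Csf1, the growth factor of macrophages, was lower than WT in CK (-0.22, adjusted p = 0.0108) and in KO (-1.52, adjusted p = 6.86e-08). Il33 was higher in CK than in WT by 1.21 (adjusted p = 3.61e-06). Tlr2, a receptor for bacterial lipoproteins, was lower in CK and KO (-1.20 and -1.12), and the interleukin-17 receptor subunit Il17rc was lower in CK than in WT (-1.01).

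By Pearson r over the 9 arrays, a measure set almost wholly by the 3 genotype means, the genes most like Ccl2 were Slit2, Thy1 and Sytl2 (r of 0.997 each), and those most like Ccl7 were BC028528, Mmd and Ebf4 (0.998, 0.997 and 0.996). Those most like Cxcl16 were 3830403N18Rik, Plac8 and Ramp2 (0.999, 0.998 and 0.998), all high in WT. For Cxcl10 they were Ptpn22, Cdk18 and Tnfrsf23 (0.997, 0.994 and 0.994), for Cxcl5 Csnk1e, Fabp4 and Nova1 (0.998, 0.997 and 0.997), and for Cxcl14 Rpp25, Jup and C1ql3 (0.997, 0.995 and 0.993). The closest to Cxcl12 was Cpeb1 (0.990), to Cxcl1 Ago4 (0.991) and to Cxcl15 F8 (0.991). Genes with a range of genotype means under 1 were left out of this search. By that range, from 1.21 for Cxcl1 to 4.70 for Ccl2, each of the 9 lay above at least 90.9% of genes.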

How the data were processed

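The table deposited for 9 Affymetrix arrays holds log2 expression values of 34760 probe sets. Per the submitters' processing notes, the authors used RMA from the affy package. RMA equalises the distributions of the arrays, so a change in total RNA per cell is not seen. The deposited digits (10 to 15 per cell) lack a decimal mark. With the mark after the first digit, strings that start with 1 reach 1.44 and the rest begin at 4.28, so strings with a leading 1 were read as 10 or more. Where a genotype's arrays straddle 10 (2242 cases), the median range within it was 0.263 after this step, against 8.92 without it.

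Probe sets with a single symbol in the platform annotation (21640) gave 19937 genes. Genotypes were compared with limma 3.58.1 (R 4.3.3) on all 9 arrays and all genes. Variances were moderated (residual df 6, prior df 2.81), p-values were adjusted over all genes by Benjamini-Hochberg, and a call is an adjusted p under 0.05. The fit was tested on simulated data. The number of arrays limits the precision.

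The 9 genes and all other lists were chosen with earlier results of these data known, and lists were only counted. From the other lists, genes could be named that had the smallest p in a comparison (up to 3), chemokine ligands and receptors that were called and bright (60th percentile of gene means or more), cluster neighbours, the main receptors and proteases of the 9, and the genes most alike. Nfkbia, Rel, Rela, Ikbkb, Ifit1, Ifit3, Krt8 and genes below the dim mark were also named after their values were seen. Alternatives covered filters on dim genes, probe sets, scaling, variance models, the arrays fitted, thresholds, a replicate block and each array left out.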

Additional observations from a re-analysis of the deposited data

Results flagged for a closer look

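Ccl7, Cxcl5 and Cxcl10 stood out because their called differences from WT had opposite signs in the 2 mutants, and the mutants differed when set directly against each other. Ccl7 was higher than WT in CK by 0.58 and lower in KO (log2 difference -3.56), with a CK minus KO difference of 4.14 (limma adjusted p = 1.73e-08). Cxcl5 was higher in CK by 1.21 and lower in KO (-0.62), with a CK minus KO difference of 1.83 (adjusted p = 1.71e-08). Cxcl10 was higher in CK by 2.88 and lower in KO (-0.70), with a CK minus KO difference of 3.58 (adjusted p = 6.36e-07). Its KO minus WT call was lost when any of 5 arrays was left out (adjusted p from 0.0600 to 0.0696) and at an adjusted p under 0.01. The difference itself stayed between -0.77 and -0.65 with each array left out in turn. Over all alternatives its limma adjusted p ran from 0.000196 to 0.0696. The opposite signs of Cxcl10 therefore rest on a call that depends on the setting. The CK minus WT and KO minus WT values share the WT arrays. All 3 CK arrays were above, and all 3 KO arrays below, every WT array for each gene.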

How the results depend on the processing

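In the alternatives run, no called difference of the 9 genes changed its direction. Counts are given for KO against WT, then CK against WT, then CK against KO. A filter that kept genes with means at or above the 60th percentile left 5 of the 9, of which 3, 5 and 5 were called. In all, 4434, 5442 and 5367 of 7975 genes were called. Without the filter 33.7%, 42.3% and 41.5% of 19937 genes were called, a smaller share in each comparison. The cause of the larger share with the filter was not tested. Asking for a difference of at least 1 as well left 4 called in KO versus WT, and 1157, 1452 and 1640 genes called in all. Centring arrays on their median called 11925 genes in KO versus WT; the cause was not tested. Leaving out 1 array gave 6 to 7, 8 to 8 and 7 to 8 of the 9 called, and 5760 to 6799, 7711 to 8494 and 7509 to 8294 genes in all. Whether the replicate numbers of the titles pair the arrays is not known. Correlations of same-numbered deviations ran from -0.26 to 0.34, and in KO versus WT they were 0.04, 0.23 and 0.34. Differently numbered ones in KO versus WT ran from -0.32 to 0.22. With the replicate numbers as a block, 7, 8 and 8 of the 9 were called, and 6513, 8215 and 8116 genes, so the block moved no count of the 9. Values below the dim mark on all arrays of a genotype limit Cxcl5 in KO and WT, Cxcl10 in KO and Cxcl15 in CK, Ccl2 and Ccl7 in KO lie near it, and the table holds no detection calls.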
